A study of Mus musculus with 8 samples.

Results

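A miRNA hairpin is cut into a duplex of 2 strands, and array names of this generation mark the strand taken to be the minor product, the passenger, with a star. The star arms described here are the 95 mouse star arms left on the array after leaving out 19 of its 114: miR-7a*, miR-9*, miR-17*, miR-21*, miR-22*, miR-24-1*, miR-24-2*, miR-29b*, miR-99b*, miR-191*, miR-378*, miR-712*, miR-877* and the names starting with miR-290 to miR-297, miR-466, miR-467 or miR-669. The stars were chosen by name, with earlier results of these data known. The array carried 567 mouse miRNAs, and the 95 stars belong to hairpins with 91 distinct guide arms, since 4 guides are shared by stars of different loci. RNA came from 8 samples of dendritic cells grown with GM-CSF (40 ng/ml) from the marrow of C57BL/6 mice, a common inbred strain. Non-adherent cells of day 9 were kept overnight without (4 samples) or with (4 samples) 10 µM of ODN1826, a class B CpG oligonucleotide, that is, a short DNA sensed by the receptor TLR9. The labels call the control medium alone in 1 place and PBS in another, and no sample received a control oligonucleotide. Whether the replicates were separate animals or cultures is not stated, so a p-value here reflects how far these 8 samples scatter, and that scatter may be technical.

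In the usual account the Dicer product is loaded into Argonaute, the strand whose 5′ end is less stably paired is kept as the guide, and the passenger is discarded. A first base of U or A favours loading. Names with a star rest on which arm was seen more often in early sequencing, and for some hairpins the starred arm is the one later found to be more abundant or to be loaded as well. Arm choice of 1 hairpin can differ between tissues.

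The arms that the results turn on are printed 5′ to 3′ with the seed, bases 2 to 8, in capitals, because the seed sets which target sites an arm pairs with and each pair shows how different the 2 arms of 1 hairpin are. The sequences are those of RefSeq (GRCm38.p6). These are the hairpins whose star gave more signal than the guide, among them miR-674, whose arm ratio changed with CpG. RefSeq entries of the miR-485 guide were not matched.
miR-674*: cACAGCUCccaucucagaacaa
miR-674: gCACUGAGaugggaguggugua
miR-135a*: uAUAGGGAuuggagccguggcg
miR-135a: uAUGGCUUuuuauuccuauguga
miR-483*: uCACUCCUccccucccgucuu
miR-483: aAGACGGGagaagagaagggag
miR-485*: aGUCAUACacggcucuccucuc

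On GRCm38.p6, miR-674* lies at chr2:117185186-117185207 on the plus strand, in no other gene span of the RefSeq table used. miR-135a* lies at chr9:106154179-106154200 on the plus strand, within the spans of the coding gene Glyctk and the non-coding gene D030055H07Rik. miR-483* lies at chr7:142654932-142654952 on the minus strand, within the span of Igf2. miR-485* lies at chr12:109734946-109734967 on the plus strand, in no span of another gene, and belongs to the imprinted Dlk1-Dio3 miRNA cluster. The table gives spans only, so exon and intron are not stated. The 4 stars are all from the 3p arm of their hairpin and have 4 different seeds.

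RefSeq sequences were found for 83 of the 95 stars and for 76 of the 91 guides. A first base of U was present in 16 of the 83 stars (19.3%) and in 48 of the 76 guides (63.2%). C was the commonest first base of the stars, with 32 (38.6%), against 6 guides (7.89%). The median GC content was 50% in the stars and 43.5% in the guides. Of the 4 hairpins printed above, the stars of miR-674 and miR-485 start with C and A, and those of miR-135a and miR-483 start with U. The matched guides of these hairpins start with G (miR-674), U (miR-135a) and A (miR-483). Among the stars, 6 seeds were shared by a pair: let-7b* with let-7f*, miR-30a* with miR-30e*, miR-30c-1* with miR-30c-2*, miR-200a* with miR-200b*, miR-302b* with miR-302c*, and miR-376b* with miR-376c*. No star shared its seed with any of the 76 guides. These are descriptions of the sequences, and none was tested.

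Each array's signals are intensities, from several probes per miRNA, and the scanner software flags each miRNA as detected or not. The 75th percentile of signal, taken over 177 mouse miRNAs that every array detected, ran from 101.1 to 143.8 in the untreated group and from 156.6 to 280.5 in the CpG group, so unscaled signals are higher with CpG for most miRNAs, and levels are compared after division by that percentile. All 5 haematopoietic and myeloid markers (miR-223, miR-142-3p, miR-142-5p, miR-21 and miR-146b) were detected on all 8 arrays, with a summed signal of 21450 to 25150 untreated and 29400 to 50990 with CpG. The 2 erythroid markers and the 4 stromal markers on the array were detected on none. miR-200b, 1 of 5 epithelial markers, and miR-9, 1 of 2 neural markers, were detected on all 8, as was miR-181a of the 2 lymphoid markers, with miR-150 on none. Fewer cells of a type and less RNA per cell cannot be told apart in such bulk samples.

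Most star arms were not seen in these cells. Of the 95 stars, 10 (10.5%) were detected on all 8 arrays, 14 on 1 to 7 arrays and 71 on none, whereas 43 of the 91 guides (47.3%) were detected on all 8. The 19 stars left out of the set were detected on all 8 arrays in 13 cases (68.4%), so the set holds the mostly dim stars of the array. The 10 stars detected throughout were let-7b*, let-7d*, miR-15a*, miR-18a*, miR-29c*, miR-135a*, miR-140*, miR-483*, miR-485* and miR-674*. A further 4 were detected on at least 3 arrays of 1 group and were also tested: let-7g* (2 untreated and 3 CpG arrays), miR-30b* (3 and 4), miR-30e* (2 and 3) and miR-302c* (0 and 3). The other 10 seen on some arrays were miR-16*, miR-28*, miR-30c-1*, miR-33*, miR-138*, miR-146b*, miR-181a-1*, miR-411*, miR-744* and miR-872*. No star was detected on all 4 arrays of 1 group and on none of the other.

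Untreated arrays detected 12, 14, 12 and 14 of the 95 stars (13 ± 1.16, SD, n = 4). CpG arrays detected 12, 19, 14 and 22 (16.8 ± 4.57, SD, n = 4). The CpG arrays of replicates 2 and 4, with 19 and 22 stars, were also the arrays of highest unscaled signal (75th percentiles of 252 and 280.5), and the other CpG arrays stayed within the untreated range. The part of signal strength in the number of stars detected was not tested. The same arrays detected 45 to 49 guides untreated and 49 to 51 with CpG.

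Bright guides often had a star that was not detected. Among the 46 stars whose guide was detected on all 8 arrays, 7 stars were detected on all 8 and 29 on none. The guide let-7f gave a mean untreated signal of 1389 ± 167 (SD, n = 4), miR-29a 1337 ± 209, miR-27a 1136 ± 112, miR-15b 1081 ± 236 and let-7i 942 ± 118, and the stars of these 5 hairpins were detected on no array. The reverse also occurred: among the 35 stars whose guide was detected on no array, miR-135a* and miR-485* were detected on all 8. Stars detected on all 8 arrays came from the 3p arm in 9 of 10 cases, and stars detected on none came from the 3p arm in 36 of 69 with a settled arm. The median GC content of the star sequences was 54.5% in the first class (n = 10) and 45.5% in the second (n = 61). Probes differ between miRNAs, and the part of base composition in detection was not tested.

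By family, 2 of the 7 let-7 stars (let-7b* and let-7d*) were detected on all arrays and all 6 let-7 guides were. let-7 guides are abundant regulators of differentiation, and their stars come from the other side of the stem. Of the 7 stars of the miR-17 family clusters, which drive growth and survival of blood cells, only miR-18a* was detected on all arrays and the other 6 on none, while all 7 guides were detected throughout. The miR-30 hairpins gave 0 of 5 stars on all arrays and 3 on at least 1. The miR-15 and miR-16 hairpins gave miR-15a* on all arrays and miR-16* on 1 array, of 5 stars. The miR-29 and miR-101 hairpins gave miR-29c* of 3 stars, and miR-27a* and miR-27b* were detected on none. These counts hold for the set only: miR-17*, miR-24-1*, miR-24-2* and miR-29b*, left out of it, were detected on all arrays. Of 9 stars from hairpins known in immune cells, miR-146b* and miR-181a-1* were detected on some arrays and none on all. The Dlk1-Dio3 cluster, known for expression in brain and embryo, had 13 stars here, of which miR-485* was detected on all arrays and miR-411* on 1, and none of its 13 guides was detected on all. Of 19 stars of hairpins known from other tissues, miR-135a* was detected on all arrays and miR-138* and miR-302c* on some. The remaining 25 stars included miR-140*, miR-483* and miR-674*, detected on all.

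Where the guide was detected on all untreated arrays and the star on at least 3 of them, the star mostly gave a small share of the guide's signal. Such a share is a ratio of signals and not of molecules, because the arms have different probes, and it is a description without a test. let-7d* gave 0.903%, 0.821%, 1.37% and 0.625% of the let-7d signal on untreated replicates 1 to 4 (0.929% ± 0.314, SD, n = 4). miR-15a* gave 1.25%, 0.706%, 1.10% and 0.457% of the signal of miR-15a, a guide that restrains cell survival genes (0.877% ± 0.362). These were the lowest shares among such hairpins, and let-7d* and miR-15a* overlapped. let-7g*, detected on 2 of the 4 untreated arrays, gave between 0.210% and 0.575% of the let-7g signal. miR-29c* gave 2.13%, 2.42%, 2.46% and 2.11% of miR-29c, whose family targets collagen and DNA methyltransferase transcripts (2.28% ± 0.185), above every value of let-7d* and miR-15a*. miR-30b* gave 4.59%, 3.66%, 4.02% and 4.73% of miR-30b (4.25% ± 0.497), with the star detected on 3 of these 4 arrays. let-7b* gave 5.86%, 3.29%, 6.41% and 2.38% of let-7b (4.48% ± 1.96), a range that covers that of miR-30b*. miR-18a* gave 12.5%, 6.83%, 12.6% and 7.66% of miR-18a (9.89% ± 3.08), the highest share of these 6.

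miR-140 stood between the hairpins led by the guide and those led by the star. miR-140*, the brightest star of the set, gave signals of 59.4, 70.4, 79.2 and 71.1 on untreated replicates 1 to 4. The miR-140 guide, known from cartilage, gave 65.1, 69.1, 82.0 and 73.0 on the same arrays. The star was thus at 91.3%, 102%, 96.6% and 97.3% of the guide, and the arms gave nearly equal signal on each array. The star lies at chr8:107551288-107551308 (GRCm38.p6, plus strand), within the span of Wwp2, and is the arm that current names call 3p.

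**Figure D1:**
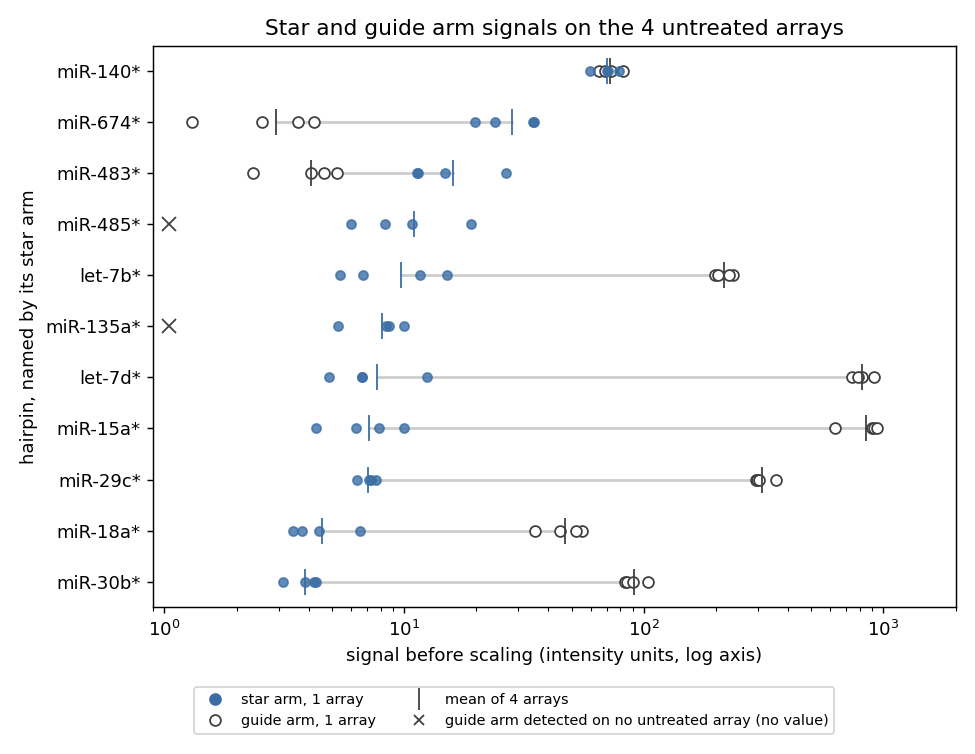
Signals before scaling (intensity units, log axis) of the star arm (filled) and guide arm (open) on each of the 4 untreated arrays, for the 11 hairpins whose star was detected on at least 3 of them; vertical ticks are means and a cross marks a guide detected on no untreated array. The star lies left of the guide in 6 hairpins, on it in miR-140, and right of it in miR-674 and miR-483, whose guide was detected on 2 of the 4 arrays.

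On all 4 untreated arrays, 4 hairpins had a star brighter than the guide: miR-674, miR-483, miR-485 and miR-135a. miR-674* gave 35.0, 23.9, 34.6 and 19.7 on untreated replicates 1 to 4. The miR-674 guide gave 3.61, 2.55, 4.20 and 1.30 on the same arrays. The star was 9.70, 9.38, 8.24 and 15.1 times as bright as the guide (mean 10.6 ± 3.08, SD, n = 4), so on every array the arm named as passenger carried most of the signal of this hairpin. With the brightest probe of each arm in place of the mean over probes, it was 5.20, 5.26, 4.83 and 5.75 times as bright. On untreated replicate 4 the scaled log2 level of the guide was -6.53, against a floor of -6.55. The value of 15.1 thus rests on a guide signal near the floor.

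miR-483*, from a hairpin within Igf2, gave 14.9, 11.4, 26.7 and 11.3 on untreated replicates 1 to 4. Its guide gave 2.35, 4.63, 4.10 and 5.25 and was detected on replicates 2 and 4 only. On those arrays the star was 2.47 and 2.16 times as bright, and on the other 2 no fold is given. miR-485* gave 10.8, 8.29, 19.01 and 5.99 on the untreated arrays, and its guide was detected on no array. miR-135a* gave 5.32, 8.37, 8.63 and 10.0, and the guide miR-135a, known from brain, was also detected on no array. For those 2 hairpins no ratio can be given. With the brightest probe of each arm in place of the mean over probes, miR-140* joined them as the 5th.

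With CpG, miR-674 changed its arm ratio, toward the guide. The ratio of the 2 arms on 1 array does not depend on scaling between arrays. It was tested in all 19 hairpins with both arms detected on at least 3 arrays of each group, 8 of them in the set. Among the 19, the ratio was called lower in 2 (10.5%) and higher in 4 (21.1%). Of the 8 hairpins of the set, 1 was called lower, miR-674, and 0 were called higher. The unadjusted limma p was under 0.05 in 4 of the 8 and in 10 of all 19.

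miR-674* gave 47.9, 51.2, 50.5 and 59.2 on CpG replicates 1 to 4, and the miR-674 guide gave 9.02, 10.8, 12.2 and 11.1. The star was therefore still the brighter arm, by 5.31, 4.74, 4.16 and 5.34 times. The log2 ratio of star to guide was 3.28, 3.23, 3.04 and 3.92 untreated and 2.41, 2.25, 2.06 and 2.42 with CpG. All CpG arrays lay below all untreated arrays, as 42.1% of the 19 hairpins did not overlap in either direction. The ratio fell by 1.08 on the log2 scale (SE 0.20, limma adjusted p = 0.00496, 95% interval -1.54 to -0.63). Within the rows of the slide, which each held 2 arrays of each group, the difference was -1.19 and -0.98.

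Of the 2 arms, the guide passed the level test and the star did not. On the scaled log2 scale the miR-674 guide was at -5.51 ± 0.76 untreated and -4.30 ± 0.36 with CpG (SD, n = 4 each), which is 1.21 higher (SE 0.35, limma adjusted p = 0.0495). The star was at -2.14 ± 0.47 and -2.02 ± 0.29, a difference of 0.12 (SE 0.25, limma adjusted p = 0.735, 95% interval -0.43 to 0.68). The guide's call lay at the threshold: it held in 13 of 23 alternatives, and its difference was above 0 in 22 of them. The arm ratio was called in 16 of its 17 alternatives and missed the threshold with normexp background correction (-0.05, adjusted p = 0.805).

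**Figure D2:**
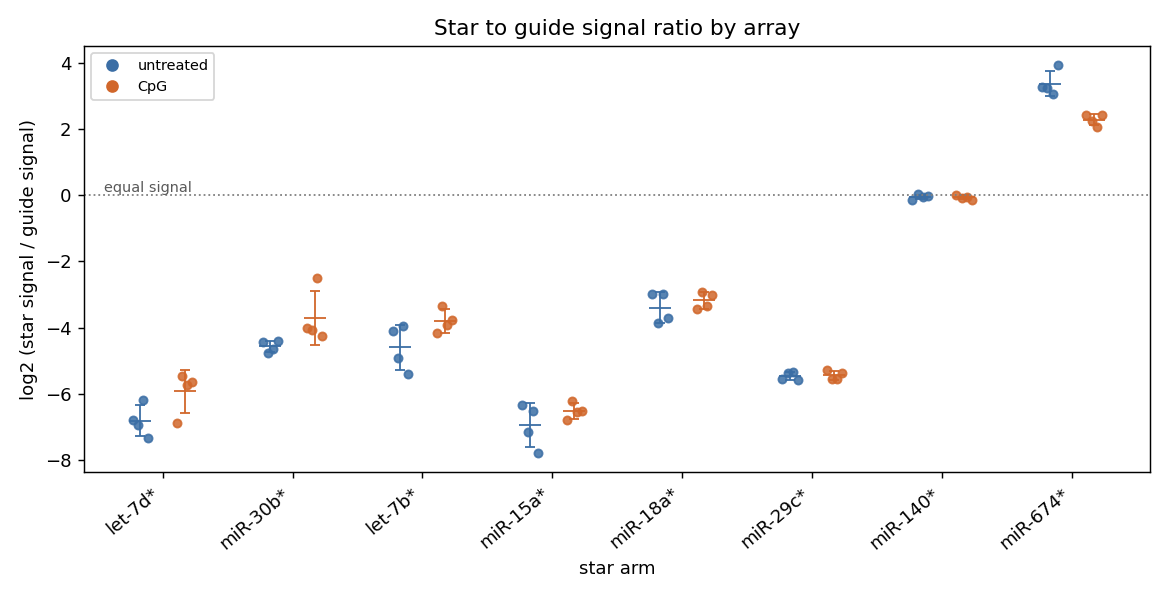
log2 of star signal over guide signal on each array (points; untreated and CpG) for the 8 hairpins with both arms tested, with the mean and SD of 4 arrays per group; the dotted line is equal signal. The 4 CpG points of miR-674 lie below its 4 untreated points, and miR-140 stays near 0 in both groups.

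The other 7 ratios of the set were not called. let-7d* against let-7d differed by 0.89 (SE 0.35, limma adjusted p = 0.0880, 95% interval 0.07 to 1.70). let-7b* against let-7b differed by 0.80 (SE 0.34, limma adjusted p = 0.0939, interval 0.01 to 1.59). In let-7b and let-7d the groups overlapped. miR-30b* against miR-30b differed by 0.86 (SE 0.37, limma adjusted p = 0.0939), with all CpG arrays above all untreated arrays, as in 26.3% of the 19 hairpins. Part of the size of that difference came from CpG replicate 3, at -2.49 against -4.11 for the mean of the other CpG arrays. Without that array the difference was 0.45 and was called (limma adjusted p = 0.0349). Without CpG replicate 1 the let-7d ratio differed by 1.20 and was called (limma adjusted p = 0.00967). Without untreated replicate 3, let-7b (1.01) and let-7d (1.09) were called, each with a limma adjusted p of 0.0452. For let-7b and let-7d the array left out held the lowest CpG or the highest untreated ratio, so these calls say nothing further.

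miR-15a (0.42), miR-18a (0.21), miR-29c (0.03) and miR-140 (-0.02) had smaller differences in the ratio. The interval of miR-140 ran from -0.21 to 0.18 and that of miR-29c from -0.23 to 0.28, the narrowest of the 8. The median difference was 0.32 over the 8 hairpins and 0.27 over all 19.

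The level of 1 star passed the test. Of 212 mouse miRNAs detected on at least 3 arrays of a group, 7.55% were called higher and 6.60% lower with CpG. Among the 14 stars of the set that were tested, 1 was called higher (miR-135a*) and 0 lower. The unadjusted limma p was under 0.05 for 2 of them (miR-135a* and miR-302c*). It was so for 85 of all 212 miRNAs and for 24 of the 48 tested guides of the set. The median difference was 0.25 over the 14 stars, of which 10 were above 0, against -0.19 over all 212 miRNAs and -0.33 over the 48 tested guides of the set, of which 4 were above 0. Without scaling the median of all 212 was 0.60 and that of the 14 stars 0.91, and scaling to the control features named hur gave 0.35 and 0.69. A floor 2 times higher gave -0.19 and 0.06, with 8 stars above 0. With normexp background correction the medians were nearly equal, at -0.26 and -0.24, with 0 stars above 0. The gap between the stars and all miRNAs thus depends on how signals near background are treated. The 14 stars are those that passed the detection filter, not the whole set, and 3 of them (let-7g*, miR-30e* and miR-302c*) passed it only through the CpG arrays. Over the other 11 the median difference was 0.35, with 8 above 0 and 1 at an unadjusted p under 0.05.

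miR-135a* gave unscaled signals of 22.02, 23.7, 25.98 and 27.9 on CpG replicates 1 to 4, each above the untreated maximum of 10.0. Scaled log2 levels were -4.25, -3.89, -4.06 and -3.59 untreated and -2.83, -3.41, -2.79 and -3.33 with CpG. The groups did not overlap, as in 26.9% of all miRNAs tested, and CpG lay above untreated, as in 7.08%. The difference was 0.86 (SE 0.20, limma adjusted p = 0.0284), and it was 0.84 and 0.87 within the rows of the slide. The guide stayed undetected on all 8 arrays. The call was lost under 9 alternatives with the difference still above 0: without untreated replicate 1 (0.75, adjusted p = 0.0654) or 2 (0.87, 0.0731), without CpG replicate 3 (0.76, 0.0884), and with median, quantile or cyclic loess scaling, the brightest probe, no filter or the replicate block. With normexp background correction the sign turned (-0.19, adjusted p = 0.110).

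The probes of these arms cover different lengths of the miRNA from its 3′ end. miR-135a* was read by 4 probes covering 10, 11, 12 and 13 bases. Their mean signals went from 1.57 to 8.48, from 2.20 to 11.8, from 11.1 to 33.8 and from 17.5 to 45.6, and each probe was brighter on all 4 CpG arrays than on any untreated array. The miR-674 guide was read by 4 probes covering 11 to 14 bases, and most of its signal came from the longest, which went from 9.75 to 32.3. The 12-base and 13-base probes went from 1.25 to 5.22 and from 2.05 to 6.67, and the 11-base probe stayed below 0 on average in both groups. The 3 probes of miR-674*, covering 17, 18 and 19 bases, went from 4.03 to 8.19, from 30.4 to 56.9 and from 50.4 to 91.6. Mean unscaled signals with CpG were thus 1.82 to 2.04 times those of untreated arrays on the star's probes and 3.25 to 4.17 times on the 3 guide probes with a mean above 0.

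**Figure D3:**
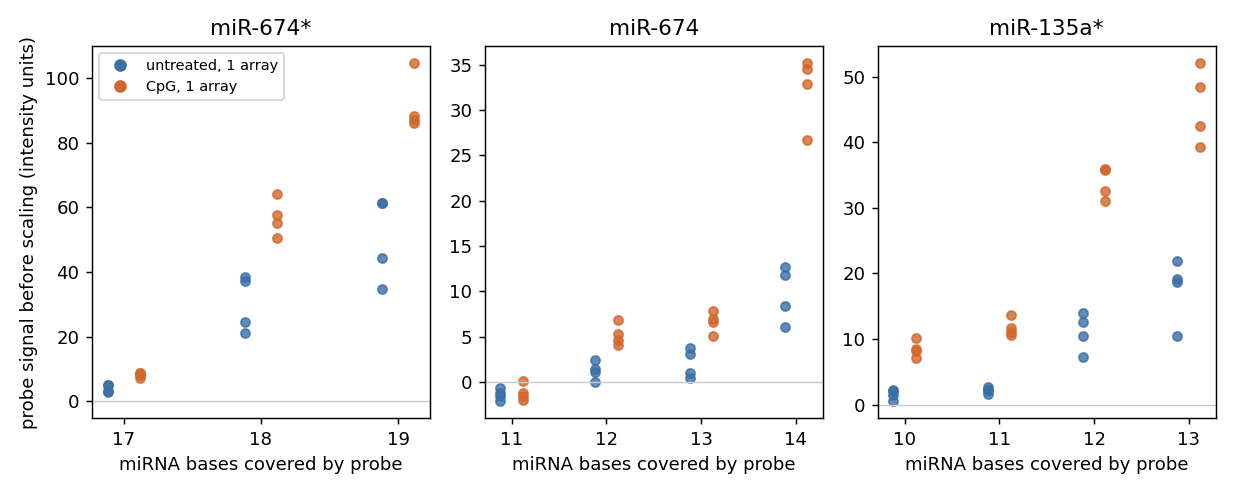
Signal before scaling (intensity units) of each probe on each array, against the number of miRNA bases the probe covers, for miR-674*, the miR-674 guide and miR-135a*; each panel has its own vertical axis. On every probe of miR-135a* and miR-674* the CpG points lie above the untreated points, as on the 12-base to 14-base probes of the miR-674 guide.

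The remaining 13 stars were not called. miR-140* gave unscaled signals of 85.8, 103.7, 86.0 and 134.6 with CpG, all above the untreated ones. After scaling, all its CpG levels lay below the untreated ones, as in 19.8% of all miRNAs tested, and the groups differed by -0.27 on the log2 scale (SE 0.13, limma adjusted p = 0.155). Its sign thus depends on the scaling (0.53 without it), and the guide differed by -0.25 on the scaled scale. miR-485* gave 10.8, 44.2, 27.6 and 41.8 on CpG replicates 1 to 4, so replicate 1 lay within the untreated range and the other 3 above it. Its scaled difference was 0.64 (SE 0.37, limma adjusted p = 0.201). miR-483* gave 15.02, 56.6, 39.3 and 58.0, again with replicate 1 low, and differed by 0.51 (SE 0.33, limma adjusted p = 0.243). miR-302c*, from a hairpin of pluripotent cells, was below the floor on all untreated arrays and on CpG replicate 1, and at -5.56, -6.01 and -6.01 on the other CpG arrays.

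let-7b* gave unscaled signals of 11.6, 6.74, 15.1 and 5.40 untreated and 10.7, 28.2, 16.5 and 30.9 with CpG, and the groups overlapped. let-7d* gave 6.68, 6.67, 12.5 and 4.87 untreated and 6.52, 24.4, 17.5 and 29.8 with CpG, with CpG replicate 1 inside the untreated range. After scaling, let-7d* differed by 0.43, let-7b* by 0.35 and let-7g* by 0.14, and their guides let-7d and let-7b by -0.45 each. Of these, the guide let-7d passed the test (limma adjusted p = 0.0497), a call that held in 7 of 23 alternatives. miR-15a* (0.01), miR-18a* (-0.08), miR-29c* (-0.22), miR-30e* (-0.27) and miR-30b* (0.51) had limma adjusted p-values between 0.321 and 0.988.

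miR-15a* gave 7.85, 6.31, 9.98 and 4.28 untreated and 6.70, 15.6, 10.1 and 18.7 with CpG before scaling. miR-29c* gave 7.61, 7.11, 7.28 and 6.37 untreated and 12.03, 9.34, 7.70 and 14.7 with CpG. On the scaled log2 scale their guides differed by -0.42 (miR-15a) and -0.24 (miR-29c), neither called. miR-30b* gave 3.85, 3.12, 4.19 and 4.28 untreated and 6.13, 7.30, 20.4 and 8.96 with CpG, and replicate 3 stood above the rest.

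Of the 48 guides of the set that were tested, 1 was called higher (miR-674) and 4 lower (let-7d, miR-16, miR-30c and miR-138). Of all 212 miRNAs tested, 7.55% were called higher and 6.60% lower. The stars of miR-16, miR-30c and miR-138 were not tested, being detected on 1 array (miR-16*), 3 arrays (miR-30c-1*), no array (miR-30c-2*) and 3 arrays (miR-138*). The call of miR-16 held in 9 of 23 alternatives, that of miR-138 in 14 of 22 and that of miR-30c in 18 of 23. let-7d and miR-16 were above 0 under 2 alternatives each, those without scaling or on the hur features, while miR-30c and miR-138 were below 0 under all.

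**Figure D4:**
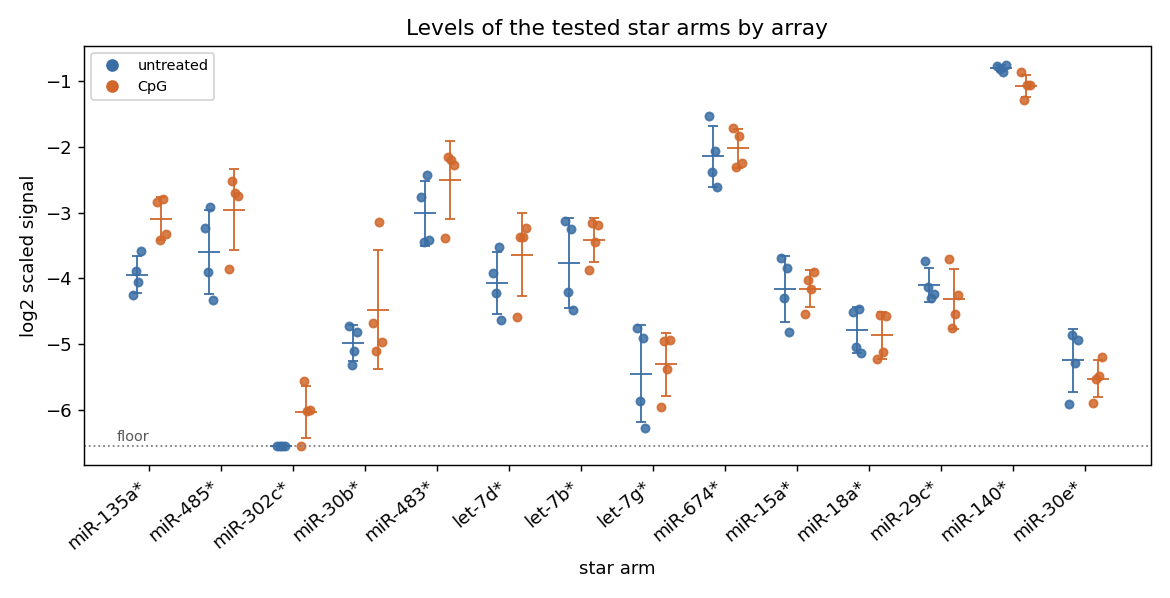
Scaled log2 signal of the 14 tested star arms on each array (points; untreated and CpG), with the mean and SD of 4 arrays per group, ordered by their difference; 0 is each array's 75th percentile and the dotted line is the floor of -6.55. miR-135a* is the star whose CpG points all lie above its untreated points, and miR-302c* lies at the floor on all untreated arrays.

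Leaving out CpG replicate 1 raised the number of stars called higher from 1 to 5, adding let-7d* (0.75), miR-483* (0.80) and miR-485* (0.94), with limma adjusted p-values between 0.0418 and 0.0442, and miR-302c*. The array left out is the CpG array on which miR-302c* lay at the floor, and that star was tested only because of the other 3 CpG arrays, so its call says nothing further. CpG replicate 1 also held the lowest CpG levels of let-7d*, miR-483* and miR-485*, so leaving it out raised their CpG means. Leaving out untreated replicate 1 or 2 or CpG replicate 3 left 0.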

How the data were processed

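miRNA was measured on 8 one-colour Agilent mouse arrays, 4 per group. The authors deposited scanner intensity per spot, background-subtracted by the scanner software (per the file headers, Feature Extraction 9.5.3.1), and per-miRNA detection flags. limma is named in the submitters' processing notes, but its settings are not given in the sources used here.

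Here, processed signals were averaged over spots without outlier flags and then over probes, scaled to the 75th percentile, per array, of 177 mouse miRNAs that all arrays detected, floored at 0.0107 (log2 -6.55) and taken to log2. Levels of the 212 miRNAs detected on at least 3 of 4 arrays of a group, and star-to-guide log2 ratios of 19 hairpins, were tested between groups by limma 3.58.1 under R 4.3.3 (lmFit, eBayes, two-sided, Benjamini-Hochberg over each table, threshold 0.05), after a check on simulated data. The number of arrays limits the precision. No spot of a star arm was saturated. Star arms were tied to RefSeq 5p or 3p names by the order of the arms on the hairpin (85 stars) or by locus number (8), with 2 not settled. In all 69 hairpins comparable this way, the distance between the arms on the array's annotation (mm9) equalled that of RefSeq.

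The members and lists were chosen with earlier results of these data known. Values on every array are given for stars or hairpins past a test, stars brighter than their guide on all untreated arrays, the 6 brightest stars and the 5 lowest shares; others were named after their values were seen. The alternatives changed the scaling, background, probe summary, filter, floor, limma options or blocks, or left out 1 array. Figures used Python 3.11.15 and matplotlib 3.10.9.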

Additional observations from a re-analysis of the deposited data

Results flagged for a closer look

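In 46 groups of 4 arrays (levels of 14 stars and ratios of 8 hairpins, plus the number of stars detected), 1 array stood apart from the other 3 in 3 groups. Chance alone marks about 1 in 20, so 3 of 46 is close to the chance rate. The scaled log2 level of let-7d* on CpG replicate 1 was -4.59, against a mean of -3.32 on the other CpG arrays. miR-483* on the same array was at -3.38, against -2.21. The log2 star to guide ratio of miR-30b* on CpG replicate 3 was -2.49, against -4.11 on the others. Neither star of CpG replicate 1 was called with all arrays, and both were called without it, at differences of 0.75 for let-7d* and 0.80 for miR-483* (limma adjusted p of 0.0442 and 0.0418). That array was flagged for its low values, so leaving it out raises the CpG means, and these calls say nothing further.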

How the results depend on the processing

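Of the values of single stars and hairpins under all alternatives, 380 had the same direction and the same call, 21 passed it newly, 10 no longer did, 36 changed sign with neither value called, and 6 reversed. Those 6 all came with normexp background correction, whose added offset of 50 is above the unscaled signal of each of these stars on every array: let-7b* (-0.31), let-7d* (-0.29), let-7g* (-0.24), miR-135a* (-0.19), miR-15a* (-0.31) and miR-485* (-0.24). There the stars called lower were 9 and those called higher 0. The number of stars called higher was 8 without scaling, 2 with the 4 hur control features, and 0 with median scaling, quantile normalization, cyclic loess normalization, the brightest probe or no filter. Leaving out 1 array gave 0 to 5 calls higher. Ratios called higher were 1 with the brightest probe, 6 with no filter, which adds undetected arms, and 0 to 2 with 1 array left out. Ratios called lower were 0 with normexp and 2 with no filter. miR-135a* was called in 13 of 23 alternatives (adjusted p from 0.000629 to 0.113) and the miR-674 ratio in 16 of 17 (adjusted p from 0.000785 to 0.805). Whether same-numbered samples were paired is not stated, though they lay in the same row of the slide, in neighbouring columns. Deviations of same-numbered samples correlated at 0.28, -0.26, 0.25 and 0.10, and 1 of 4 untreated samples correlated best with its own number. So few samples cannot settle whether they were paired. With the replicate block, 0 stars were called higher (miR-135a* at an adjusted p of 0.0564) and the miR-674 ratio was still called (0.00844). Over all 212 miRNAs, calls lower went from 14 to 22 with that block, to 34 with a floor 2 times higher, to 29 with the eBayes trend and to 139 with normexp. The causes of these shifts were not tested.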

Other observations

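Among the 14 tested stars, 6 (42.9%) had their 3 lowest scaled levels on the same 3 arrays, untreated replicates 2 and 4 and CpG replicate 1: let-7b*, let-7d*, let-7g*, miR-15a*, miR-483* and miR-485*. Of all 212 miRNAs tested, 33 (15.6%) did so. The pattern was chosen after the values were seen and was not tested, and the 3 arrays share neither a group nor a row of the slide.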
